A study of Rattus norvegicus with 12 samples.

Results

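The genes described here are 7 GABA-A receptor subunits, namely Gabra2, Gabra3 and Gabra5 (alpha2, alpha3 and alpha5), Gabra4 (alpha4), Gabrb1 and Gabrb2 (beta1 and beta2), and Gabrd (delta). They were taken by gene name from the probe annotation of the arrays, and each of the 7 had 1 probe, printed once, among 30367 non-control probes. All 7 were well above background in all 12 samples, so all 7 stayed among the 18688 genes tested. The samples were prefrontal cortex RNA of female Sprague-Dawley rats, in 3 groups of 4 animals. The control group was born to dams given vehicle, normal saline, on gestational day 15 and received saline on postnatal day 14. The betamethasone group was born to dams given 2 injections of betamethasone, a synthetic glucocorticoid, at 0.4 mg/kg each on gestational day 15, and also received saline on postnatal day 14. The third group had the same betamethasone exposure and received ketamine, an NMDA receptor blocker, at 35 mg/kg on postnatal day 14. Tissue was taken on postnatal day 15 in every group, per most label fields, while 1 field gives another age. The labels speak of infantile spasms in the treated rats without saying which groups showed them, and they do not give the litter of any animal, so p-values measure the spread between these samples.

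GABA-A receptors are chloride channels opened by GABA, the main inhibitory transmitter of the cortex, and each receptor is assembled from several subunits around a pore. The alpha subunits set where a receptor sits and how it responds to drugs. In rodent forebrain alpha2, alpha3 and alpha5 belong to the receptors of early life, and delta belongs to receptors outside the synapse that become abundant as the brain matures. Beta subunits are needed for assembly and carry part of the GABA binding site.

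The probe sequences are shown because each subunit was read by a single probe and the family members resemble each other. Gabra2 and Gabra3 were the most alike pair of probes by aligned bases, with 33 of 54 aligned bases identical without gaps, and capitals mark those bases in the first pair of sequences. For Gabrb1 and Gabrd the first 30 bases are shown.
Gabra2: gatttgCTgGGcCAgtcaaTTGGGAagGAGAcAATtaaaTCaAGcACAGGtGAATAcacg
Gabra3: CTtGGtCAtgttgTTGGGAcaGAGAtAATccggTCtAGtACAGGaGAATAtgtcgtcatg
Gabra5: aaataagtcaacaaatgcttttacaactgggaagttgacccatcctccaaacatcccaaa
Gabra4: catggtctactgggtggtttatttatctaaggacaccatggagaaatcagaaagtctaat
Gabrb2: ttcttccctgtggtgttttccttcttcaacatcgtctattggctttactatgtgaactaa
Gabrb1: caaggtaccagctctgtaagagttccatca
Gabrd: attagttggcctgtccctgaagctgagcct
The longest run of bases shared by the Gabra2 and Gabra3 probes was 6, and no other probe on the array shared a 20-base word with any of the 7.

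The files place the probes on rat build rn4. The Gabra2 probe lies at chr14:39661796-39662852 on the plus strand and the Gabra3 probe at chrX:158416663-158422492 on the minus strand. Their spans of 1057 and 5830 bases are longer than a 60-base probe, so each covers a gap in the genome. The Gabra5 probe lies at chr1:108844189-108844248 on the minus strand. The Gabra4 probe at chr14:39122375-39122434 on the plus strand and the Gabrb1 probe at chr14:38530433-38530492 on the minus strand are on the chromosome of Gabra2. The Gabrb2 probe lies at chr10:27819086-27819145 on the plus strand, and the Gabrd probe at chr5:172203200-172203260 on the minus strand. No exon annotation of that build was used here. In the gene order of RefSeq's newer assembly, Gabrb1 and Gabra4 were adjacent, 1 protein-coding gene lay between Gabra4 and Gabra2, and Gabra2 was followed directly by Gabrg1. Gabra5 was next to Gabrg3, and Gabrb2 next to Gabra6.

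The 6 arrays were read in 2 colours, and each held 2 animals of the same group, with 1 animal per dye. All control arrays were on 1 slide and all other arrays on a second slide, so slide, and the scanner software version that differed with it, cannot be told apart from control status, while the comparison of ketamine with saline lies within 1 slide. Between 71.4% and 81.5% of non-control spots were well above background in a sample, and no member spot was saturated. Ketamine samples 1 and 2, which share an array, stood apart on the first principal component at 54.11 and 52.17, against -20.07 to -6.81 for the other 10 samples. Areas where many neighbouring spots departed from the other arrays covered 4.14% of that array, and 0.201% and 0.595% of the control arrays. The only member spot inside such an area was that of Gabra4 on the array of control samples 1 and 2. Pyramidal neuron markers (5 of 5) and GABAergic interneuron markers (7 of 7) were well above background in every sample, and so were all astrocyte, oligodendrocyte, microglia and endothelial markers on the lists.

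Subunit signals after prenatal betamethasone were compared with those of controls, which were on the other slide. Of the 7 subunits, 4 had lower and 3 had higher mean signal, with changes between -0.34 and 0.10 on the log2 scale, and none passed the threshold of 0.05 on limma's adjusted p. Over all genes, 0.246% were called in this comparison. At an unadjusted p under 0.05, which 11.7% of all genes reached, the count of subunits was also 0 of 7. Groups were fully separated for 1 of 7 subunits, against 18% of all genes. The members' median change was -0.08 and that of all genes was 0.03. The change of Gabra5, -0.34, was greater in size than that of 85.1% of all genes. For the other subunits this share was 30.5% to 67.3%.

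Ketamine after betamethasone was compared with saline after betamethasone on the same slide. Signal was higher for 5 subunits and lower for 2, with changes between -0.10 and 0.30, and limma called 0 of 7, with 0 of 7 also at an unadjusted p under 0.05. Limma called 0% of all genes here, and 3.23% reached an unadjusted p under 0.05. No subunit was fully separated between these groups, against 4.05% of all genes. The members' median was 0.12 against 0.05 for all genes. The change of Gabra5, 0.30, was greater in size than that of 87.9% of all genes, and for the other subunits this share was 15.6% to 68%. Between betamethasone with ketamine and control, where limma called 0.091% of all genes and 14.1% reached an unadjusted p under 0.05, it called 0 of 7 subunits, and 0 of 7 reached that unadjusted p. None of the 7 was fully separated, against 15.8% of all genes. There 4 subunits were higher and 3 lower, and the median was 0.01 against 0.07. The 3 comparisons use 3 groups in pairs, so each shares samples with the others.

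**Figure D1:**
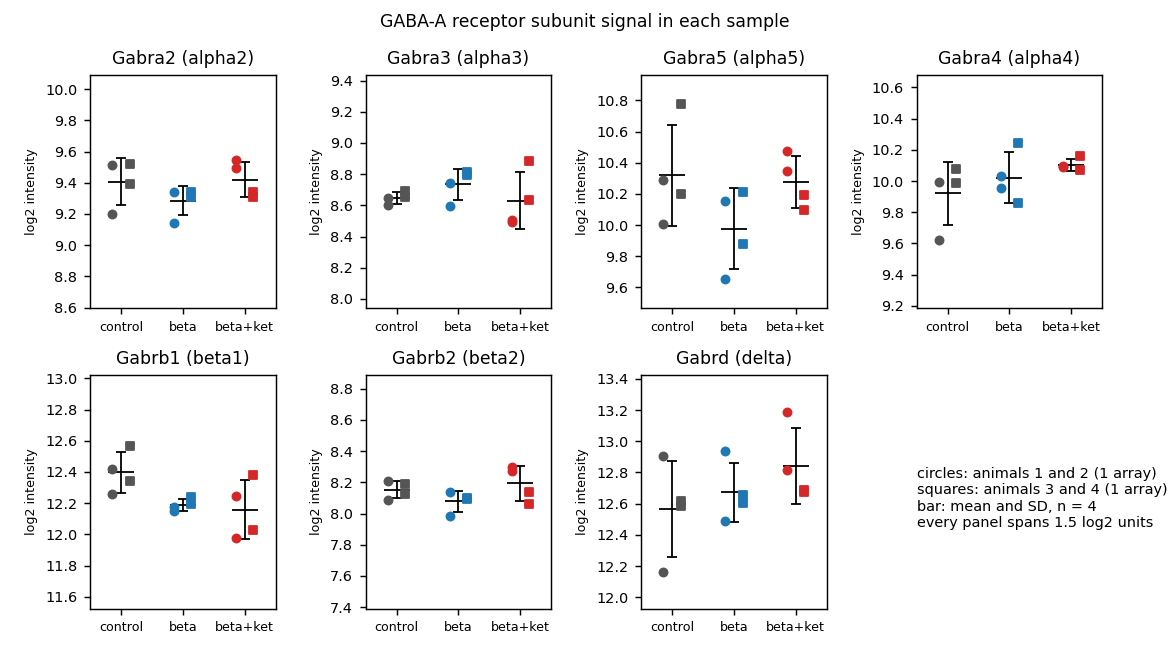
Log2 normalised intensity of each of the 7 subunits in each of the 12 samples, with circles for animals 1 and 2 and squares for animals 3 and 4 of a group, which share an array, and bars for the mean and SD (n = 4). Every panel spans 1.5 log2 units, and the groups overlap in every panel except control against betamethasone for Gabrb1.

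Among the subunits of early life, Gabra2 encodes alpha2, found at the axon initial segment and at synapses on the cell body and dendrites. Its log2 intensity was 9.51, 9.20, 9.39 and 9.52 in controls 1 to 4, 9.34, 9.15, 9.31 and 9.34 after betamethasone, and 9.54, 9.49, 9.34 and 9.31 after betamethasone with ketamine. The groups overlapped, and both ketamine samples of the array that stood apart were above both samples of the other ketamine array. The betamethasone mean of 9.28 ± 0.09 (SD, n = 4) was 0.12 below the control mean of 9.41 ± 0.15, with an adjusted p of 0.78 by limma. The ketamine mean of 9.42 ± 0.11 was 0.14 above betamethasone alone (limma adjusted p = 0.911).

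Gabra3 encodes alpha3, which is abundant in the deep layers of immature cortex. Controls 1 to 4 gave log2 intensities of 8.64, 8.60, 8.69 and 8.65, against 8.59, 8.74, 8.79 and 8.81 after betamethasone and 8.51, 8.49, 8.89 and 8.64 after betamethasone with ketamine. Controls lay within a narrow range, and the ketamine group held both the lowest and the highest of the 12 values. The change from control to betamethasone was 0.09 ± 0.13 (SE; limma adjusted p = 0.848), and that from betamethasone to added ketamine was -0.10 (limma adjusted p = 0.915). The arrays of the ketamine group differed from each other by 0.26, which is more than either change.

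Gabra5 encodes alpha5, a subunit of receptors largely outside the synapse that is bound by the anchoring protein radixin. Its log2 intensity was 10.29, 10.01, 10.20 and 10.77 in controls, 9.66, 10.16, 9.88 and 10.21 after betamethasone, and 10.35, 10.47, 10.19 and 10.10 after betamethasone with ketamine. It had the most spread of the immature subunits, and control sample 4 was the highest of the 12. The betamethasone mean of 9.98 ± 0.26 (SD, n = 4) was 0.34 below the control mean of 10.32 ± 0.33. This was the change of greatest size among the 21, with a 95% interval of -0.89 to 0.20 and an adjusted p of 0.638 by limma. With ketamine the mean was 10.28 ± 0.17, a change of 0.30 from betamethasone alone with a 95% interval of -0.25 to 0.85 (limma adjusted p = 0.906).

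Gabrd encodes delta, a subunit of receptors that give tonic inhibition, and was the only member taken as mature in the comparison with immature subunits. The log2 intensities of Gabrd were 12.91, 12.16, 12.58 and 12.62 in controls, 12.94, 12.49, 12.60 and 12.66 after betamethasone, and 13.19, 12.81, 12.68 and 12.69 after betamethasone with ketamine. All groups overlapped, control sample 2 was the lowest and ketamine sample 1 the highest. Group means were 12.57 ± 0.31, 12.67 ± 0.19 and 12.84 ± 0.24 (SD, n = 4). The difference between the ketamine group and controls was 0.27, with a 95% interval of -0.24 to 0.79 (limma adjusted p = 0.597). The ketamine arrays differed from each other by 0.32, and the higher array was the one that stood apart. Without that array the change was 0.11, and without control sample 2 it was 0.14. With arrays scaled to one median, the betamethasone change of 0.10 became 0.47 and that with added ketamine -0.37.

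Immature and mature subunits were set side by side as the mean of alpha2, alpha3 and alpha5 minus delta, each relative to the control mean. In controls the difference was -0.31, 0.22, -0.05 and 0.14. After betamethasone it was -0.63, -0.03, -0.17 and -0.09, and with ketamine -0.61, -0.22, -0.09 and -0.23. All 8 values of the exposed animals were below 0, and so were 2 of the 4 control values, so the groups overlapped. The group means were -0.23 ± 0.27 and -0.29 ± 0.23 (SD, n = 4) against 0 ± 0.24 in controls. For the immature mean alone, controls were at 0.03, -0.19, -0.03 and 0.19. Betamethasone samples were at -0.26, -0.11, -0.13 and 0, and ketamine samples at 0.01, 0.03, 0.01 and -0.11. Delta alone was at 0.34, -0.41, 0.02 and 0.05, then 0.37, -0.08, 0.03 and 0.09, then 0.62, 0.24, 0.11 and 0.12. With ketamine the immature mean stayed within the control range, and delta was above the control mean in every sample. No test was run on the difference. Without betamethasone sample 1 the mean difference after betamethasone was -0.10 relative to controls and ketamine minus saline was -0.19. Without ketamine sample 1 the difference of -0.29 became -0.18. With arrays scaled to one median, betamethasone against control was -0.51, ketamine against saline 0.35, and betamethasone with ketamine against control -0.16. The lowest value of each of the 3 groups came from sample 1. Samples 1 and 3 of each group were Cy3-labelled, and sample 3 gave -0.05, -0.17 and -0.09. The part of the dye was not tested.

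**Figure D2:**
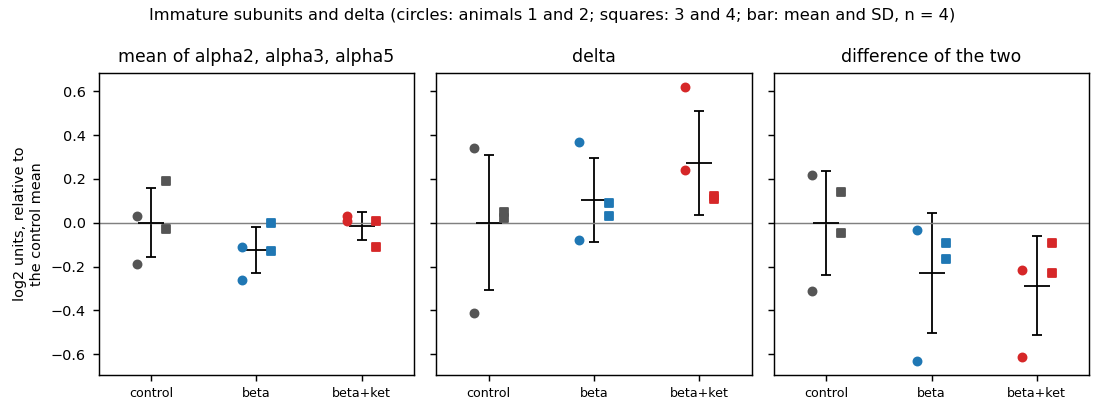
Mean of alpha2, alpha3 and alpha5, delta, and their difference in each of the 12 samples, in log2 units relative to the control mean, with bars for the mean and SD (n = 4). The difference averages -0.23 after betamethasone and -0.29 with ketamine, and both groups overlap the controls.

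Gabra4 encodes alpha4, which pairs with delta in many forebrain neurons. Gabra4 had log2 intensities of 9.99, 9.63, 9.99 and 10.07 in controls, 9.96, 10.03, 9.86 and 10.24 after betamethasone, and 10.09, 10.09, 10.16 and 10.07 after betamethasone with ketamine. The ketamine values were close together, and control sample 2 was well below the other 11. The change from control to betamethasone was 0.10 ± 0.18 (SE; limma adjusted p = 0.883), and that from control to betamethasone with ketamine was 0.18 (limma adjusted p = 0.642). The spot on the array of controls 1 and 2 lay in a departing area, and with such spots left out the betamethasone change was -0.01 and that of betamethasone with ketamine 0.07.

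Gabrb1 encodes beta1 and was the only subunit for which a pair of groups did not overlap. Gabrb1 had log2 intensities of 12.26, 12.42, 12.34 and 12.57 in controls, 12.17, 12.15, 12.24 and 12.20 after betamethasone, and 11.98, 12.24, 12.03 and 12.38 after betamethasone with ketamine. All 4 betamethasone values were below all 4 control values, by as little as the gap between 12.24 and 12.26. Among all genes, 7.4% were separated in this direction. The betamethasone mean of 12.19 ± 0.04 (SD, n = 4) was 0.21 below the control mean of 12.40 ± 0.13, with a 95% interval of -0.49 to 0.07 and an adjusted p of 0.569 by limma. The betamethasone with ketamine mean of 12.16 ± 0.19 was 0.24 below control, with a 95% interval of -0.52 to 0.04 (limma adjusted p = 0.419). Both comparisons are between slides, and the change within the second slide, from betamethasone to added ketamine, was -0.03 (limma adjusted p = 0.983). With arrays scaled to one median in place of Aquantile, the betamethasone change of Gabrb1 turned to 0.14 and the change with added ketamine was -0.55. Summed astrocyte marker intensity ran from 63100 to 77300 in controls from 58600 to 59800 after betamethasone and from 58800 to 77200 with ketamine, where it overlapped controls. Summed oligodendrocyte marker intensity ran from 38700 to 84100, 20700 to 50000 and 30900 to 67700 in these groups, and summed endothelial marker intensity from 4190 to 6670, 6590 to 7910 and 6980 to 9910. Their part in the Gabrb1 values was not tested. In RNA of whole tissue, fewer cells of a type and less RNA per cell cannot be told apart.

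Gabrb2 encodes beta2, a common partner of alpha subunits in adult cortex. Its log2 intensity was 8.09, 8.21, 8.13 and 8.19 in controls, 7.98, 8.14, 8.09 and 8.10 after betamethasone, and 8.27, 8.30, 8.06 and 8.14 after betamethasone with ketamine. All 12 values lay within a narrow band, with both samples of the ketamine array that stood apart at the top. Gabrb2 was the dimmest of the 7. Gabre, Gabrp and Gabrr1, other subunits never well above background, read between 7.16 and 7.38. The part of low signal in the narrow Gabrb2 band was not tested. The changes were -0.08 from control to betamethasone (limma adjusted p = 0.798) and 0.12 from betamethasone to added ketamine (limma adjusted p = 0.906). With 75th percentile scaling and no loess the Gabrb2 changes were -0.63 and 0.81, where the medians of all genes were -0.19 and 0.32.

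**Figure D3:**
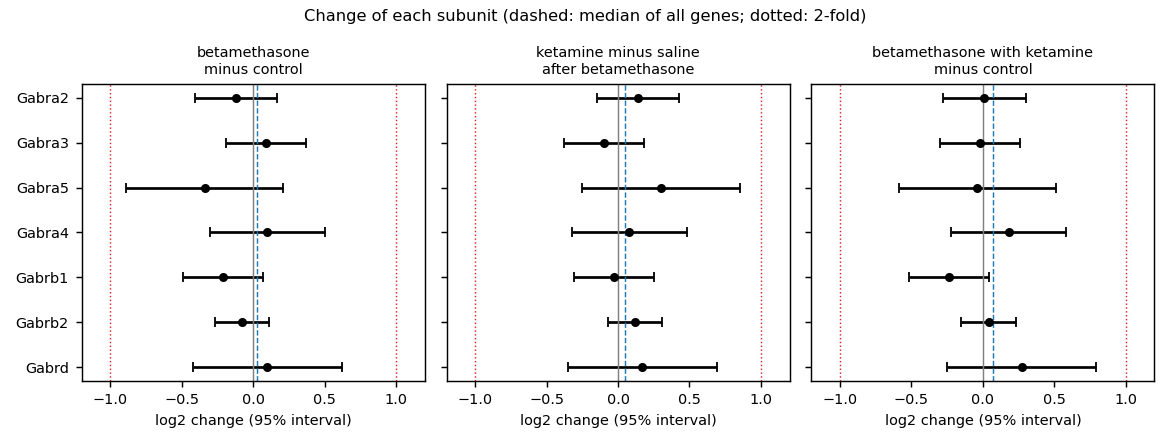
Log2 change of each subunit in the 3 comparisons, with 95% intervals from limma, a dashed line at the median of all genes and dotted lines at a 2-fold change. All 21 intervals include 0 and all 21 lie inside the 2-fold lines.

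These intervals hold for the normalisation used, and under other scalings some estimates fell outside them. All 21 intervals included 0, 21 of 21 lay inside a 2-fold change in either direction, and 15 of 21 lay inside a 1.5-fold change. The widest intervals were those of Gabra5 and Gabrd. In 7 of the 21 comparisons the change was greater than the largest difference between arrays of a compared group, 4 of them in betamethasone against control, 2 in ketamine against saline and 1 in betamethasone with ketamine against control.

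The deposited value table gave a different picture of levels against control. With its columns centred on their own medians, limma called all 7 subunits lower after betamethasone and all 7 lower in betamethasone with ketamine than in control. In that setting 14781 and 14777 of 17324 genes were also called, and the median of all genes was -1.06 and -0.99. The control columns held 36101 to 42261 values and the other columns 25782 to 34137, so their medians were taken over different sets of probes. With each column centred on the tested genes measured in all 12 samples, a setting added after that result was seen, limma called 0 of 7 in all 3 comparisons. The value table also carries control samples 1 and 2 under the scanner values of control samples 3 and 4, and the reverse, and the names of the control scanner files number them as the value table does. Control numbers here follow the labels assigned to the scanner files, which leaves the groups, array pairs and dyes the same.

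**Figure D4:**
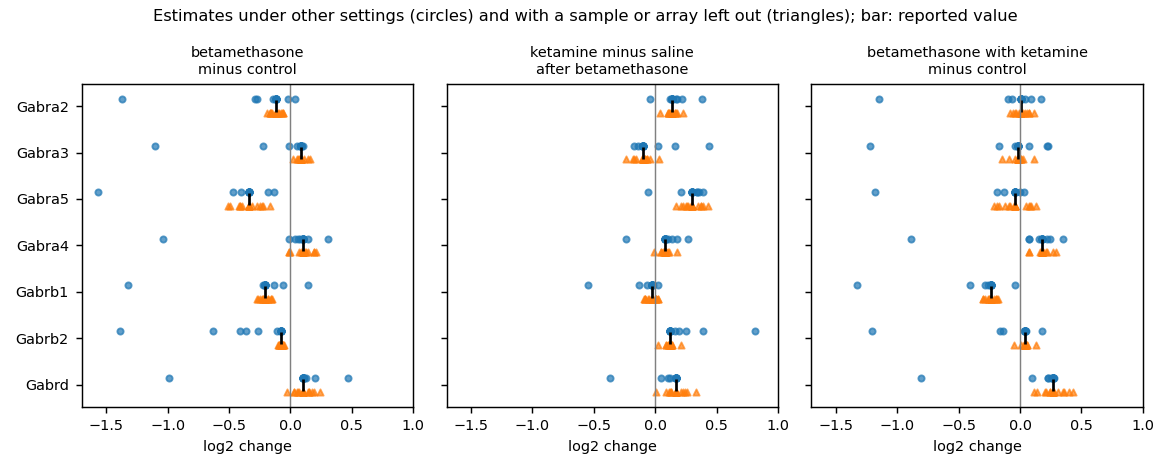
Log2 change of each subunit under other processing settings (circles), with a sample or an array left out (triangles) and as reported (bars). The circles near -1 and beyond in the comparisons with control are from the value table centred on its own medians, where the median of all genes was -1.06 and -0.99.

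Across the 12 samples the subunits did not move as a block. The highest Pearson correlation between members was 0.71, for Gabra2 and Gabrd, followed by 0.63 for Gabra5 with Gabrb2 and 0.61 for Gabra2 with Gabra5. The lowest was -0.60, for Gabra3 with Gabrb2. Neighbours on chromosome 14 had correlations of -0.35 for Gabra4 with Gabrb1 and 0.40 for Gabra2 with Gabra4. These points share arrays, slides and dyes. Over 13031 genes with a symbol, the most alike patterns were those of Golph3l for Gabra2 (r = 0.96), Sla for Gabra3 (r = 0.95) and Slc38a1 for Gabra5 (r = 0.96). For Gabra4 it was Rbm3 (r = 0.94), for Gabrb1 it was Tubb4a (r = 0.89), for Gabrb2 it was Col2a1 (r = 0.94) and for Gabrd it was Cnot3 (r = 0.91), each over 12 samples.

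Other genes of GABA signalling were counted from lists chosen by function. Limma called 0 of 5 tested genes among 9 other subunits, 0 of 2 GABA-B receptor genes, 0 of 9 tested genes for scaffold, adhesion and auxiliary proteins, 0 of 12 trafficking genes and 0 of 7 genes for GABA synthesis, transport and chloride cotransport, in each of the 3 comparisons. The median changes after betamethasone were 0.04, -0.48, -0.23, -0.05 and -0.12 for these lists, against 0.03 for all genes. Of the other subunits, Gabre, Gabrp and Gabrr1 were well above background in 0 of 12 samples and Gabrr3 in 2 of 12, and these were not tested.

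Among other subunits, Gabrr2, which encodes rho2, had all betamethasone values above all control values, at 7.95 ± 0.08 against 7.74 ± 0.05 (SD, n = 4; limma adjusted p = 0.439). Gabrq, for theta, was at 13.24 ± 0.13 against 12.89 ± 0.28 (limma adjusted p = 0.551), and Gabrg1, for gamma1 and next to Gabra2 on the chromosome, at 9.20 ± 0.07 against 9.50 ± 0.23 (limma adjusted p = 0.521). None of these passed the threshold. The Gabrr2 values were also dim, near the 7.16 to 7.38 read for Gabre, Gabrp and Gabrr1.

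Gabbr2, a subunit of the metabotropic GABA-B receptor, was at 14.60, 14.90, 14.92 and 15.12 in controls, 14.42, 14.41, 13.44 and 13.83 after betamethasone, and 14.91, 15.10, 14.40 and 14.62 with ketamine. All betamethasone values were below all control values, and samples 3 and 4, which share an array, were below samples 1 and 2. The change was -0.86 ± 0.24 (SE; limma adjusted p = 0.202), and from betamethasone to added ketamine it was 0.73 (limma adjusted p = 0.906). Gabbr1, its partner, was 0.85 lower with ketamine than with saline (limma adjusted p = 0.906), and its spot lay where spots departed on the array that stood apart, at 11.53 and 11.46 against 13.54 and 13.45 on the other ketamine array.

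Of the scaffold and adhesion genes, Nlgn2, an adhesion protein of inhibitory synapses, was 0.55 lower after betamethasone (limma adjusted p = 0.425). Its values there were 13.55, 13.54, 12.53 and 12.57, so the 2 arrays differed, and a dimmer probe of the gene read 8.33, 8.25, 8.40 and 8.15. Rdx, for radixin, was 0.37 lower (limma adjusted p = 0.424), and Mdga1, a binding partner of Nlgn2, 0.20 higher (limma adjusted p = 0.424). The Mdga1 signal was dim, at 7.99 after betamethasone and 7.79 in controls. Gphn, for the scaffold gephyrin, had its spot in a departing area of the ketamine array that stood apart, as Gabbr1 did. It read 9.32 and 9.34 on that array and 11.15 and 11.09 on the other ketamine array.

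Among trafficking genes, Zdhhc3, a palmitoyltransferase, was at 11.30, 10.74, 10.90 and 10.90 in controls and 11.69, 11.64, 11.73 and 11.79 after betamethasone. The groups did not overlap, and the change was 0.75 ± 0.19 (SE; limma adjusted p = 0.163), the smallest adjusted p of any list gene in that comparison. A second Zdhhc3 probe read 11.25, 11.18, 11.12 and 11.19 against 8.99, 10.90, 11.23 and 11.11, so the probes disagreed. Gabarapl2, a relative of the GABA-A receptor-associated protein, changed by -0.82 after betamethasone (limma adjusted p = 0.266) and 1.06 with added ketamine (limma adjusted p = 0.906), with 1 control and 1 betamethasone value missing. A second probe did not show the betamethasone difference. It read 11.19, 11.32, 11.10 and 11.20 after betamethasone and 11.25, 11.13, 11.24 and 11.10 in controls. With ketamine that probe read 11.12, 11.29, 10.93 and 11.15, so it did not show the rise either. Another Gabarapl2 probe read 12.50, 12.68, 12.55 and 12.66 after betamethasone. With ketamine it read 13.32 and 13.09 on the array that stood apart, and 12.74 and 12.51 on the other ketamine array. Hap1, a motor adaptor for receptors, also had its spot in a departing area of the ketamine array that stood apart.

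For GABA synthesis, Gad2, which makes GABA, was 0.30 lower after betamethasone (limma adjusted p = 0.753) and 0.40 higher with added ketamine (limma adjusted p = 0.906). Gad1, which also makes GABA, was 0.14 higher after betamethasone (limma adjusted p = 0.831) and 0.12 higher with added ketamine (limma adjusted p = 0.937). A dimmer Gad1 probe read 7.91, 7.85, 8.04 and 8.16 in controls and 7.56, 7.89, 7.57 and 7.81 after betamethasone, so the probes differed in direction. The chloride exporter Slc12a5 changed by -0.12 and the importer Slc12a2 by -0.14 after betamethasone (limma adjusted p = 0.792 and 0.744).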

How the data were processed

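Per the labels, total RNA was amplified, labelled with Cy3 or Cy5 and hybridised to Agilent 2-colour arrays. The deposited scanner files hold linear intensity per spot, from Agilent Feature Extraction. The submitters' processing notes give version 10.7.3.1; per the file headers it was 11.5.1.1 for all 4 control samples and 11.0.1.1 for the other 8, so software version and control status cannot be told apart. The deposited value table holds a ratio-like signal per spot with column medians of 1; its scale and the steps behind it are not given in the sources used here.

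Mean intensities were corrected with normexp (offset 50), normalised within each array by loess and then across arrays by Aquantile, and each channel was treated as a sample (limma 3.58.1, R 4.3.3). Outlier spots were left out. The brightest probe of a gene was used, among probes well above background in at least 3 samples of a group. The fit had a dye term and the array as a random block (correlation 0.5627), with Benjamini-Hochberg adjustment over 18688 genes and a threshold of 0.05. The procedure was also run on simulated data. The changes added there were larger than any reported subunit change, and no slide difference was simulated. That run therefore says nothing about finding changes of the subunits' size. The number of arrays, 6, limits the precision.

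The members and lists were chosen with earlier results of these data known. Members are described whatever their values; list genes were named by smallest p or largest change per list and comparison. The comparison of immature with mature subunits had been planned with alpha1 beside delta; some genes of the family and of the lists are not reported here, and delta alone was used. Same-numbered samples of different groups had correlated deviations of -0.058 to 0.096, so the numbers were not treated as pairs. Control files are named with 1 and 2 exchanged for 3 and 4 relative to the labels, as in the value table; the labels' numbers were used, and these correlations and the replicate block rest on them. Departing areas were defined after the files were seen, as windows where at least 20% of spots differed from the other arrays by over 1 log2 unit.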

Additional observations from a re-analysis of the deposited data

Results flagged for a closer look

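Gabra2 in betamethasone sample 2, at a log2 intensity of 9.15, lay apart from the other 3 betamethasone samples, which were between 9.31 and 9.34. The gap was a share of 0.831 of the group's range, just above Dixon's critical value for a group of that size. It was 1 of 24 groups of values examined, and chance marks about 1 in 20.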

How the results depend on the processing

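Limma called 0 of 7 subunits in all 3 comparisons in 32 of 33 alternatives. The exception, planned as such, was the value table centred on each column's median, with 7 of 7 called lower in betamethasone against control and 7 of 7 in betamethasone with ketamine against control. There Gabra3, Gabra4 and Gabrd turned to -1.10, -1.04 and -0.99 after betamethasone, and Gabra2, Gabra4, Gabrb2 and Gabrd to -1.15, -0.89, -1.21 and -0.81 in betamethasone with ketamine, while the median of all genes was -1.06 and -0.99. The same table centred on tested genes was added after seeing this result, and gave -0.01 for Gabra3 after betamethasone and -0.10 and -0.16 for Gabra2 and Gabrb2 in betamethasone with ketamine. Among the 33 alternatives, the filters on dim probes, the block and dye settings and the fit of only the compared groups left every subunit's estimate unchanged. So did array means and the mean of a gene's probes. In these settings only the p-values could change.

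Directions and sizes of the subunit changes depended on scaling. With loess and arrays scaled to one median, betamethasone against control became 0.14 for Gabrb1. The same setting gave, for ketamine against saline, -0.04, 0.02, -0.06, -0.24 and -0.37 for Gabra2, Gabra3, Gabra5, Gabra4 and Gabrd. In betamethasone with ketamine it gave -0.07 and 0.07 for Gabra2 and Gabra3. With 75th percentile scaling and no loess, Gabra3 became -0.22, 0.44 and 0.22 in the 3 comparisons, where all genes had medians of -0.19, 0.32 and 0.17. In both settings the immature minus delta difference became -0.51 for betamethasone against control 0.35 for ketamine against saline and -0.16 for betamethasone with ketamine against control, from -0.23, -0.06 and -0.29. With processed signals it was -0.15, 0.07 and -0.08. Sizes grew without a change of sign for Gabrb2, to -0.63 and 0.81 with 75th percentile scaling and -0.36 and 0.39 with array medians (from -0.08 and 0.12), and with array medians for Gabrd after betamethasone (0.47) and Gabrb1 for ketamine against saline (-0.55). With the scanner's processed signals, Gabra2 became 0.04 after betamethasone, Gabra3 and Gabrb1 0.16 and 0.02 for ketamine against saline, and Gabra3, Gabra5 and Gabrb2 0.23, 0.03 and -0.14 in betamethasone with ketamine. With departing spots left out, Gabra4 became -0.01 after betamethasone. The causes were not tested.

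Leaving out samples or arrays, the changes that turned ran from -0.01 to 0.21 for Gabra4 and from -0.03 to 0.24 for Gabrd after betamethasone. For ketamine against saline they ran from -0.24 to 0.03 for Gabra3, from -0.01 to 0.18 for Gabra4 and from -0.09 to 0.02 for Gabrb1. In betamethasone with ketamine they ran from -0.08 to 0.11 for Gabra2, from -0.15 to 0.11 for Gabra3, from -0.21 to 0.13 for Gabra5 and from -0.05 to 0.13 for Gabrb2. The immature minus delta difference ran from -0.33 to -0.10, -0.19 to 0.07 and -0.42 to -0.16. The smallest adjusted p of a subunit was 0.278 with a sample left out and 0.107 with an array left out. With the replicate number as a block, limma called 0 of 7 subunits in each comparison and 29, 0 and 11 genes in all, against 46, 0 and 17 without it. Counts over all genes ran from 3 to 73, 0 to 0 and 5 to 27 with a sample left out, and from 19 to 493, 0 to 2291 and 3 to 3103 with an array left out. Under the other settings they ran from 0 to 14781, 0 to 4 and 0 to 14777. The share of called genes that were higher, 60.9% and 64.7% in the comparisons with control, was 71.6% and 90.9% with processed signals, 15.8% and 16.7% with the value table centred on tested genes and 0.223% and 0.196% with it centred on column medians. It was 12.5% and 20% of the 8 and 5 genes called without control sample 1, and 0% of the 2 genes called when only betamethasone with ketamine and control were fitted. With 4 samples on 2 arrays a group, real differences can go uncalled, and the intervals given are not limits of detection. Gabbr2 after betamethasone, at -0.86 with a 95% interval of -1.38 to -0.34, was not called (limma adjusted p = 0.202).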
